A study of Mus musculus with 12 samples.

Results

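The 8 genes C3, C4b, C2, Cfb, Cfp, Serping1, C3ar1 and C5ar1 are described here, complement genes of mouse lung apart from the C1q chains. They were taken by symbol from the 23238 gene symbols of the count tables, and all 8 of them were found and passed the expression filter. Lung RNA was sequenced from 12 samples in 4 groups of 3, namely unirradiated lung (NoIR) and lung at 8, 11 and 14 days after irradiation (IR_8d, IR_11d and IR_14d). For the irradiated groups, per the series description, tissue was taken from irradiated areas alone. Dose, strain, age and the area taken in controls do not appear in the sources used here. The controls are a single group for which the labels give no day. Irradiation and time of sampling therefore cannot be told apart in changes from unirradiated lung. The samples are whole tissue, so a lower or higher share of a cell type and a change in RNA per cell cannot be told apart. The labels number the replicates but name no animals, so the p-values rest on the spread among these samples, and part of that spread may be technical.

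Complement is a cascade of plasma and tissue proteins that marks surfaces for removal and produces inflammatory peptides. The classical and lectin routes cut C4 and C2 to form one C3 convertase. The alternative route builds another from C3b and factor B, and properdin stabilises it. Both cut C3, the central component, which releases C3a, and C5a is released from C5 in a later step. The peptides C3a and C5a act on the receptors C3aR and C5aR1. C1 inhibitor, the product of Serping1, blocks the proteases that start the classical and lectin routes. Most plasma complement comes from the liver, but in lung the epithelium, fibroblasts and macrophages also transcribe complement genes.

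Cfb, Cfp and C3ar1 stood above unirradiated lung at all 3 times, C2 fell, and C3, C4b and Serping1 passed the test at no time. C5ar1 had a log2 change of -0.46 at 8 d, which did not pass, and was higher at 11 d and 14 d. Tested over all 4 groups at once, 5 of the 8 genes differed (edgeR quasi-likelihood test, adjusted p below 0.05), against 39.2% of all 16484 genes tested. The 5 were C2, Cfb, Cfp, C3ar1 and C5ar1.

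**Figure D1:**
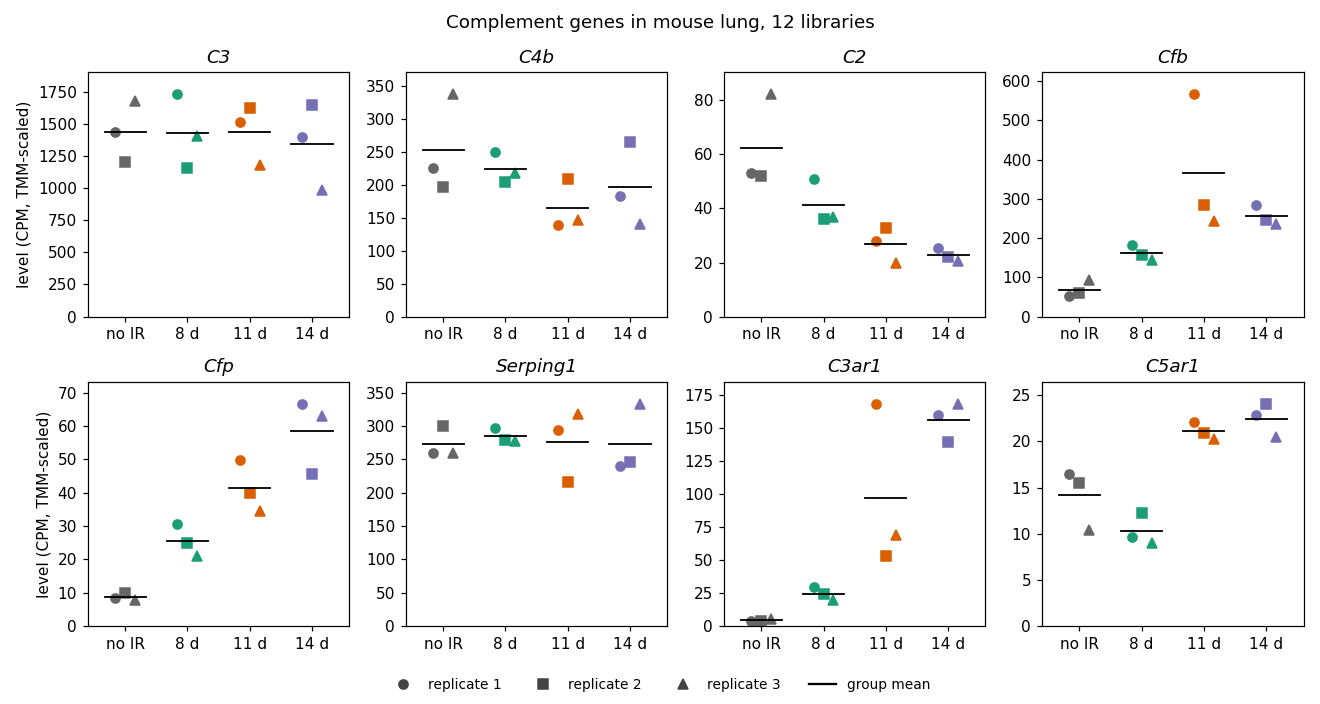
Level of each of the 8 genes in CPM (counts divided by the TMM-scaled library size, linear axes from 0) in the 12 libraries; symbols mark replicates and bars group means over 3 libraries. C3ar1 goes from 3.58 to 5.35 CPM without irradiation to between 139.7 and 168 CPM at 14 d, while C3 and Serping1 overlap in every group.

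All 8 genes lie on the minus strand in GENCODE M21 (mm10). Chromosome 17 holds 4 of them, where C4b spans 34728380 to 34743882, Cfb 34856374 to 34862518, C2 34862604 to 34898265 and C3 57203970 to 57228136. Cfb and C2 are neighbours with 85 bases between them, and the annotation also holds a gene, Gm20547, that overlaps both and is not a symbol of the count tables. C4b has a near-identical copy, C4a, so the split of reads between C4b and C4a is uncertain. Serping1 spans 84765387 to 84775444 on chromosome 2, C3ar1 122847138 to 122856161 on chromosome 6, C5ar1 16246743 to 16259540 on chromosome 7 and Cfp 20925454 to 20931555 on chromosome X.

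RefSeq promoter windows (GRCm38.p6) matched 4 of the 8 genes, C3, Cfp, C3ar1 and C5ar1; C4b, C2, Cfb and Serping1 had no entry. The 250 bases before the start are shown for C3, the most abundant member and one that did not pass the test, and for C3ar1 and C5ar1, the anaphylatoxin receptors, which took different courses. Capitals mark matches to 5 motifs chosen after the values were seen and searched on both strands, AP-1 (TGANTCA), PU.1 (GAGGAA), ISRE (GAAA, any 2 bases, GAAA), GAS (TTCNNNGAA) and C/EBP (TTNCNNAA).
C3 (chr17:57228137-57228386, minus strand): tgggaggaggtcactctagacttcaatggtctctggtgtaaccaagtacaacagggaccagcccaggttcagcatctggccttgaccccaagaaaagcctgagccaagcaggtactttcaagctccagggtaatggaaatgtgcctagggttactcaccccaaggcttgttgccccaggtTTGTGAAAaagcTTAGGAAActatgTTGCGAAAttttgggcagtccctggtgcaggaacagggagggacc
C3ar1 (chr6:122856158-122856407, minus strand): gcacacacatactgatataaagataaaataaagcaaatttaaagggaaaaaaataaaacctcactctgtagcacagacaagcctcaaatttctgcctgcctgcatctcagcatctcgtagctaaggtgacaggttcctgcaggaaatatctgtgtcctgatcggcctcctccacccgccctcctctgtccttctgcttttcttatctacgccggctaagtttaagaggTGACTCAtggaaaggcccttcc
C5ar1 (chr7:16259339-16259588, minus strand): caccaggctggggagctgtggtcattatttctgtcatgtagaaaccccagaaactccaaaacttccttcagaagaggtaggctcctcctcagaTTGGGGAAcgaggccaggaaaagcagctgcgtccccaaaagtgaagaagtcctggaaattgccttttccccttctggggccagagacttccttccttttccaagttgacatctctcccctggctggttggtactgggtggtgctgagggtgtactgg
The C3 window held 3 C/EBP matches, starting 70, 58 and 45 bases before the start and not overlapping. The C3ar1 window held 1 AP-1 match 22 bases before the start, and the C5ar1 window 1 C/EBP match 157 bases before it. RefSeq and GENCODE place the start of C5ar1 differently: 202 of the 250 bases of its window, the match included, lie inside the GENCODE span of the gene, against 4 for C3ar1 and 0 for C3 and Cfp. The Cfp window held none of the 5. Of 32851 windows of this length, 6.75% held the AP-1 letters, 36.8% the C/EBP letters, 23.3% the PU.1 letters, 7.02% the GAS letters and 2.98% the ISRE letters. These are matches of letters only.

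Depth lay between 19624554 and 27765751 counts per library, with 18204 to 19288 symbols detected. Members ranged from 97 counts (C3ar1 in an unirradiated library) to 46401 counts (C3 in another). Unirradiated replicate 3 was the highest of its group for C3, C4b, C2, Cfb and C3ar1, and the lowest for C5ar1, Cfp and Serping1. Replicate 1 at 11 d stood apart for Cfb and C3ar1. In that library the summed monocyte and macrophage markers were 14500 CPM, against 10397 and 9569 CPM in the other 11 d libraries. The results for both genes are given with and without it.

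C3 encodes the component on which all routes converge, and it was the most abundant member on a scale of CPM per kilobase of exon. Its level was 280 ± 46.2 CPM per kb without irradiation (SD, n = 3), followed by Serping1 with 117 ± 9.82, C4b with 44.5 ± 13.1, Cfb with 24.4 ± 7.59 and C2 with 16.1 ± 4.45. C5ar1 with 5.51 ± 1.27, Cfp with 5.05 ± 0.638 and C3ar1 with 1.02 ± 0.207 CPM per kb were the lowest. Ranges of ± 1 SD overlapped for C4b and Cfb, for Cfb and C2, and for C5ar1 and Cfp. At 14 d C3 with 261 ± 64.5 and Serping1 with 117 ± 22.5 CPM per kb still led, and Cfb with 90.6 ± 8.92 had the third place. C3ar1 with 36.2 ± 3.43 CPM per kb had the last place without irradiation and the fourth at 14 d, while C2 with 5.86 ± 0.609 had gone from the fifth to the last. The 14 d ranges of ± 1 SD overlapped for Serping1 and Cfb and among C3ar1, C4b (34.4 ± 11.1) and Cfp (33.6 ± 6.46).

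C3 measured 1437, 1201 and 1677 CPM in unirradiated replicates 1 to 3. It measured 1731, 1153 and 1408 CPM at 8 d, 1511, 1619 and 1181 CPM at 11 d, and 1395, 1642 and 986 CPM at 14 d. All 4 groups overlapped, and replicates within a group differed more than the group means. The log2 change from unirradiated lung was -0.0081 at 8 d (95% interval -0.46 to 0.45), -0.0015 at 11 d (interval -0.46 to 0.45) and -0.10 at 14 d (interval -0.56 to 0.35), with adjusted p of 0.98, 0.996 and 0.74 (edgeR). These intervals leave room for a C3 change of up to about 0.46 to 0.56 on the log2 scale, which was not detectable at this spread.

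C4b encodes the C4 component that, once cut, forms part of the classical and lectin C3 convertase. It measured 226, 197 and 338 CPM without irradiation, 251, 205 and 217 CPM at 8 d, 139, 209 and 146 CPM at 11 d, and 184, 265 and 140.1 CPM at 14 d. At 11 d replicates 1 and 3 lay below every control and replicate 2 overlapped them. The log2 change was -0.18 (SE 0.24) at 8 d, -0.62 (SE 0.24, adjusted p = 0.056) at 11 d and -0.37 (SE 0.24) at 14 d, none past the threshold in edgeR. At 11 d its adjusted p ran from 0.028 to 0.27 over 14 alternative settings, 6 of which called it lower, and at 14 d 1 of 14 did. Counts of C4a were between 0.108 and 0.135 times those of C4b in all 12 libraries.

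C2 encodes the protease that joins C4b in that convertase, and it fell with time. Its values were 53.0, 52.0 and 82.3 CPM without irradiation and 50.7, 35.9 and 36.8 CPM at 8 d. At 11 d they were 28.1, 32.8 and 19.7 CPM and at 14 d 25.3, 22.1 and 20.7 CPM. Every irradiated library lay below every control, though 8 d replicate 1 only just. Against unirradiated lung C2 had a log2 change of -0.60 (SE 0.21, adjusted p = 0.056) at 8 d, -1.22 (SE 0.22, adjusted p = 0.00058) at 11 d and -1.46 (SE 0.22, adjusted p = 0.00010) at 14 d by edgeR. The 8 d value passed in 3 of 14 alternative settings, over which its adjusted p ran from 0.028 to 0.24. C2 was also lower at 14 d than at 8 d, by a log2 change of -0.86 (SE 0.22, adjusted p = 0.015, edgeR). That call was lost without 8 d replicate 1 (-0.68, adjusted p = 0.062) or 14 d replicate 3 (-0.80, adjusted p = 0.052). Neither the change from 8 d to 11 d (-0.62, adjusted p = 0.17) nor that from 11 d to 14 d (-0.24, adjusted p = 0.63) passed in edgeR.

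Cfb, which lies next to C2 and encodes factor B, the protease of the alternative convertase, rose. It measured 53.3, 59.9 and 93.3 CPM without irradiation, 182, 158 and 145 CPM at 8 d, 567, 285 and 242 CPM at 11 d, and 284, 246 and 237 CPM at 14 d. No irradiated library overlapped the controls, and the spread was widest at 11 d, where replicate 1 stood far above the other libraries. For Cfb the log2 change was 1.23 (SE 0.28, adjusted p = 0.0052) at 8 d, 2.41 (SE 0.29, adjusted p = 2.1e-05) at 11 d and 1.89 (SE 0.28, adjusted p = 9.3e-05) at 14 d by edgeR, which are folds of 2.35, 5.30 and 3.72. Without 11 d replicate 1 the 11 d change was 1.94 (adjusted p = 2.3e-05, edgeR). From 8 d to 11 d Cfb rose by 1.18 (SE 0.28, adjusted p = 0.042, edgeR), and that call was lost without 11 d replicate 1 (0.71, adjusted p = 0.21) and in 7 other of the 14 settings. From 11 d to 14 d the change was -0.51 (SE 0.27, adjusted p = 0.38, edgeR), and -0.045 without 11 d replicate 1. The change of 0.66 from 8 d to 14 d (SE 0.27, adjusted p = 0.12, edgeR) did not pass, though these groups did not overlap.

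Cfb and C2 moved apart within the same libraries, a comparison that scaling cannot affect. Counts of Cfb were 1.01, 1.15 and 1.13 times those of C2 in the unirradiated replicates and 3.59, 4.39 and 3.93 times at 8 d. They were 20.2, 8.71 and 12.3 times at 11 d and 11.3, 11.1 and 11.5 times at 14 d. The 4 groups did not overlap except for 11 d with 14 d. The pair was set side by side after the values were seen, so no test is given. The sources used here do not say how reads in the overlap with Gm20547 were assigned.

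**Figure D2:**
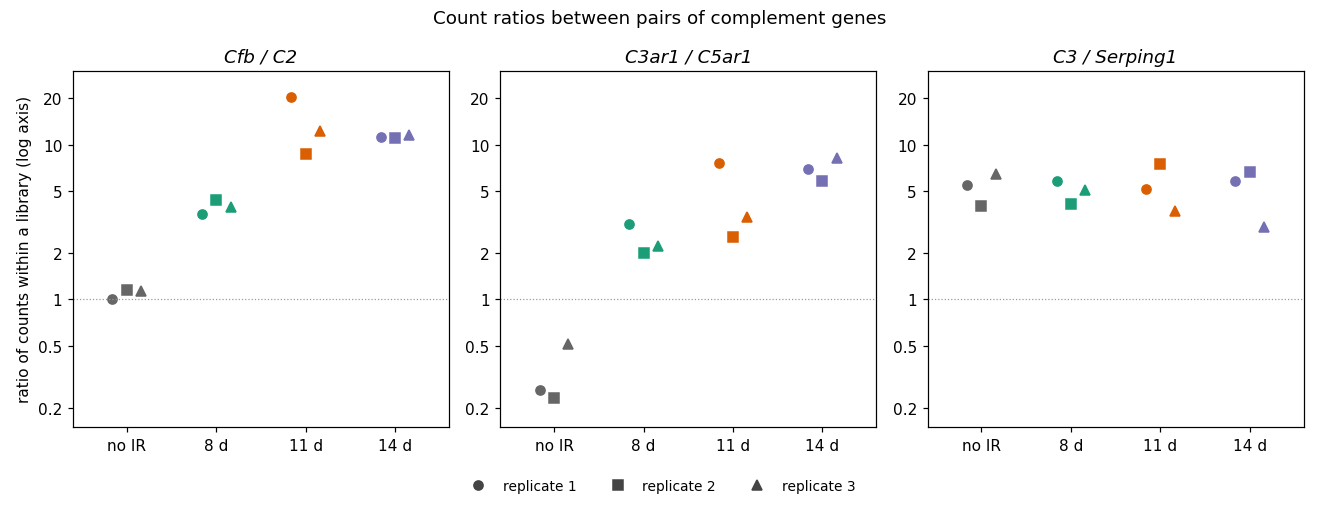
Ratio of counts of Cfb to C2, C3ar1 to C5ar1 and C3 to Serping1 within each of the 12 libraries (log axes, symbols mark replicates, dotted line at a ratio of 1). The Cfb to C2 ratio goes from 1.01 to 1.15 without irradiation to between 11.1 and 11.5 at 14 d, while the C3 to Serping1 ratio spans 2.96 to 7.51 with overlapping groups.

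Cfp encodes properdin, which stabilises the alternative convertase and is made by myeloid cells, and it rose at each time. It measured 8.59, 9.96 and 7.77 CPM without irradiation, 30.7, 25.0 and 21.1 CPM at 8 d, 49.8, 39.9 and 34.4 CPM at 11 d, and 66.6, 45.6 and 62.9 CPM at 14 d. Only the 11 d and 14 d libraries overlapped. Properdin transcript had a log2 change of 1.55 (SE 0.20, adjusted p = 8.1e-05) at 8 d, 2.24 (SE 0.20, adjusted p = 2.2e-06) at 11 d and 2.73 (SE 0.20, adjusted p = 3.3e-07) at 14 d by edgeR. The level at 14 d was above that at 8 d by 1.19 (SE 0.19, adjusted p = 0.00083, edgeR). The steps from 8 d to 11 d (0.69, adjusted p = 0.073) and from 11 d to 14 d (0.50, adjusted p = 0.20) did not pass in edgeR.

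Serping1, the regulator among the members, kept overlapping levels in all groups. It measured 260.2, 299 and 259.5 CPM without irradiation, 296, 279 and 278 CPM at 8 d, 294, 216 and 317 CPM at 11 d, and 240.0, 246 and 333 CPM at 14 d. Against unirradiated lung Serping1 changed in log2 by 0.06 at 8 d (95% interval -0.29 to 0.40), 0.01 at 11 d (interval -0.33 to 0.36) and -5.2e-05 at 14 d (interval -0.35 to 0.35), with adjusted p of 0.83, 0.96 and 0.9998 (edgeR). Counts of C3 were 2.96 to 7.51 times those of Serping1, with every group overlapping every other.

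C3ar1, the receptor for C3a on myeloid and other cells, rose the most of the 8. It measured 4.30, 3.58 and 5.35 CPM without irradiation, 29.5, 24.5 and 19.9 CPM at 8 d, 168, 53.2 and 69.0 CPM at 11 d, and 159.7, 139.7 and 168 CPM at 14 d. The unirradiated, 8 d and 11 d groups did not overlap, and 11 d replicate 1 lay among the 14 d libraries. The log2 change was 2.48 (SE 0.35, adjusted p = 0.00021) at 8 d, 4.46 (SE 0.37, adjusted p = 1.6e-06) at 11 d and 5.14 (SE 0.38, adjusted p = 3.4e-07) at 14 d by edgeR, which are folds of 5.58, 21.9 and 35.3. Without 11 d replicate 1 the 11 d change was 3.79. From 8 d to 11 d it rose by 1.97 (SE 0.33, adjusted p = 0.011, edgeR), or 1.31 without 11 d replicate 1. That call was lost without 8 d replicate 3 (1.84, adjusted p = 0.093). The change of 0.69 from 11 d to 14 d did not pass (adjusted p = 0.30, edgeR), and became 1.35 with an adjusted p of 0.0026 without 11 d replicate 1. Over all 14 settings that adjusted p ran from 0.0026 to 0.65.

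C5ar1, the C5a receptor of neutrophils, monocytes and macrophages, did not share that course. It measured 16.5, 15.5 and 10.4 CPM without irradiation and 9.65, 12.2 and 8.96 CPM at 8 d, where the groups overlapped. At 11 d it measured 22.1, 21.0 and 20.3 CPM and at 14 d 22.9, 24.1 and 20.5 CPM. Every 11 d and 14 d library lay above every unirradiated and 8 d library, and the 11 d and 14 d groups overlapped. The log2 change was -0.46 (SE 0.18, adjusted p = 0.073) at 8 d, 0.58 (SE 0.17, adjusted p = 0.017) at 11 d and 0.67 (SE 0.17, adjusted p = 0.0068) at 14 d by edgeR. The 11 d call was lost without 11 d replicate 1 (0.54, adjusted p = 0.058) or without unirradiated replicate 3 (0.40, adjusted p = 0.069). The 8 d value passed without 8 d replicate 2 (-0.60, adjusted p = 0.035) or unirradiated replicate 3 (-0.65, adjusted p = 0.010), and its adjusted p ran from 0.010 to 0.28 over 14 settings. C5ar1 was higher at 11 d than at 8 d by 1.04 (SE 0.18, adjusted p = 0.012) and at 14 d than at 8 d by 1.13 (SE 0.18, adjusted p = 0.00073) in edgeR. The first of these was lost without 8 d replicate 3 (0.95, adjusted p = 0.093) or 11 d replicate 1 (1.005, adjusted p = 0.056).

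The balance of the receptor transcripts turned over within libraries. Counts of C3ar1 were 0.260, 0.230 and 0.514 times those of C5ar1 without irradiation and 3.05, 2.01 and 2.22 times at 8 d. They were 7.61, 2.54 and 3.40 times at 11 d and 6.97, 5.81 and 8.24 times at 14 d. C5ar1 thus had more counts in the 3 unirradiated libraries and C3ar1 in the 9 irradiated ones. These are counts not corrected for transcript length, and the pair was chosen after the values were seen.

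**Figure D3:**
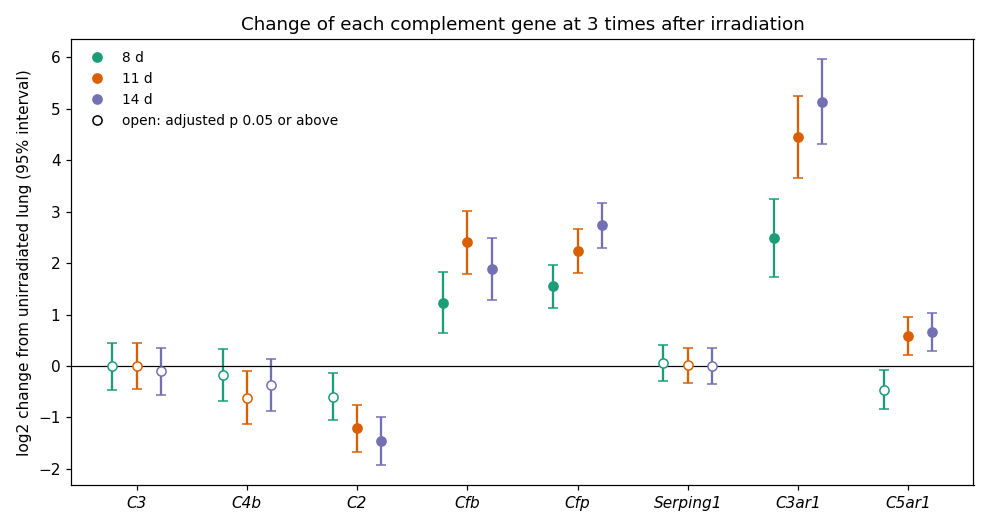
Log2 change from unirradiated lung of each gene at 8, 11 and 14 d (edgeR, 3 libraries per group, bars are 95% intervals, filled points have an adjusted p below 0.05). Cfb, Cfp and C3ar1 are above 0 at all 3 times, C2 is below 0 and filled at 11 d and 14 d, and C3 and Serping1 lie near 0.

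At 8 d 3 of the 8 genes were higher and none lower, against 23.6% of all tested genes called, 13% higher and 10.6% lower. The 3 were Cfb, Cfp and C3ar1, and 5 of the 8 had an unadjusted p below 0.05 in edgeR. DESeq2 called 4 of the 8, and 4457 of all genes in place of 3891. At 11 d 4 were higher and 1 lower, against 37.2% of all genes called, 19.4% higher and 17.8% lower. At 14 d 4 were higher and 1 lower, against 38.9% called, 20% higher and 18.9% lower. The median log2 change of the 8 was 0.03 at 8 d, 0.30 at 11 d and 0.33 at 14 d, beside medians of 0.01, -0.01 and 0.01 over all genes. These comparisons share the unirradiated libraries. From 8 d to 11 d 3 genes were higher (Cfb, C3ar1 and C5ar1) and none lower, against 2.14% of all genes called, 1.75% higher and 0.394% lower. Without 8 d replicate 3 that comparison called 0 members, and 2 of all genes in place of 353. Without 11 d replicate 1 it called 1 member, and 54 of all genes. From 8 d to 14 d 3 were higher (Cfp, C3ar1 and C5ar1) and 1 was lower (C2), against 15.4% of all genes called, 8.1% higher and 7.29% lower. From 11 d to 14 d none passed in edgeR or DESeq2, against 1.8% of all genes called, 0.813% higher and 0.983% lower, while Cfp and C3ar1 had an unadjusted p below 0.05 in edgeR. Without 11 d replicate 1 this comparison called 1 member, C3ar1, and 681 of all genes in place of 296.

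The other complement genes, 44 in a list by role, held both rises and falls. Of the 44, 38 passed the expression filter, and 9 were higher and 5 lower at 8 d, 11 and 4 at 11 d, and 13 and 5 at 14 d. Of all genes 13%, 19.4% and 20% were higher and 10.6%, 17.8% and 18.9% lower at these times. Their median log2 change was 0.08, 0.01 and 0.04 at the 3 times. The C1q chain genes C1qa, C1qb and C1qc accounted for 3 of the rises at each time, C1qa with 4.59 (SE 0.23, adjusted p = 1.1e-07, edgeR) at 14 d.

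Among the other genes of the initiating steps, 10 of 12 were tested and 2 were higher at 14 d, Fcna and Masp1, with none lower. At 14 d 20% of all genes were higher and 18.9% lower, and the median log2 change of these 10 was -0.16. Fcna, which encodes ficolin A, a lectin-route recognition molecule, went from 0.257 ± 0.0918 CPM to 1.98 ± 0.567 CPM (log2 change 2.92, SE 0.46), at few counts. Masp2, the lectin-route protease that cuts C4 and C2, was lower at 8 d (-0.78, SE 0.22) and 11 d (-0.93, SE 0.22), and at 14 d its change of -0.54 (SE 0.21) did not pass. Mbl1, which encodes a mannose-binding lectin of the same route, was lower at 8 d, from 1.31 ± 0.176 to 0.469 ± 0.264 CPM (-1.48, SE 0.45, adjusted p = 0.027, edgeR), and its changes of -0.84 at 11 d and -1.04 at 14 d did not pass. C1rl, which encodes a C1r-like protease, was higher at 11 d (0.72, SE 0.20). The C1 proteases C1ra and C1s1 passed at no time. Of the terminal components, Hc, which encodes C5, the source of C5a, fell from 792 ± 114 CPM to 430.2 ± 63.9 CPM at 8 d (log2 change -0.88, SE 0.17, adjusted p = 0.0017, edgeR). It stood at 550.2 ± 22.1 CPM at 11 d and 554 ± 114 CPM at 14 d, each lower by 0.52 (SE 0.17). C7, a part of the membrane attack complex, was lower only at 14 d among the 3 times, by -0.87 (SE 0.23). Cfd, which encodes factor D, the protease that cuts factor B, was called lower at 14 d (-3.38, SE 1.25, adjusted p = 0.045, edgeR), but its unirradiated libraries held 1.09, 3.43 and 29.5 CPM and the groups overlapped.

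Of the 13 listed regulators 4 were higher and 1 lower at 14 d, beside 20% and 18.9% of all genes. Cfi, the protease that inactivates C3b and C4b with cofactors, rose from 1.32 ± 0.524 CPM to 3.30 ± 1.32 at 8 d, 5.62 ± 1.12 at 11 d and 6.14 ± 0.832 CPM at 14 d, a log2 change of 2.21 (SE 0.31) at 14 d. Clu, which encodes clusterin, an inhibitor of the terminal complex, rose at 14 d from 210.4 ± 12.9 to 408 ± 98.6 CPM (0.95, SE 0.19). Vtn, which encodes vitronectin, another inhibitor of that complex, fell from 12.2 ± 1.14 CPM to 5.71 ± 0.270, 4.20 ± 1.13 and 2.79 ± 0.973 CPM at the 3 times. The remaining rises were Susd4 and C4bp, the latter from 2 counts in the unirradiated libraries together to 13 to 19 counts per 14 d library, too few for a fold. Of the listed receptors Itgam, Itgax and Itgb2, which encode the chains of complement receptors 3 and 4, rose at all 3 times, Itgam by 3.40 (SE 0.27) at 14 d. C5ar2, the second C5a receptor, rose at 14 d (0.79, SE 0.21), and Cd93, expressed by endothelium and once proposed as a C1q receptor, fell at all 3 times, by -0.93 (SE 0.14) at 14 d.

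**Figure D4:**
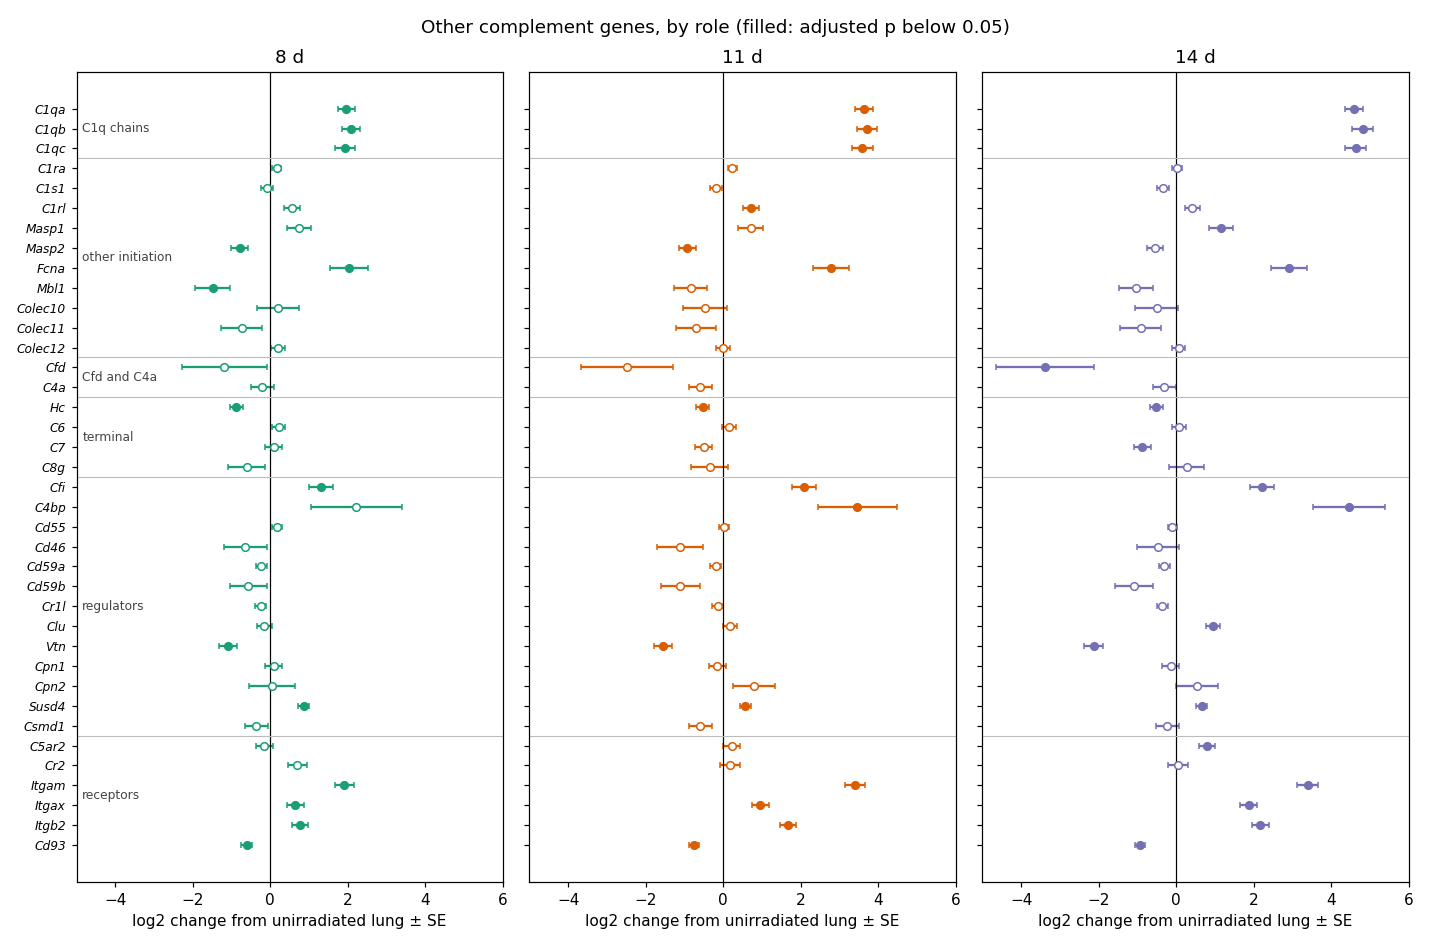
Log2 change from unirradiated lung (± SE, edgeR, 3 libraries per group) of the 38 tested complement genes outside the 8, by role, at 8, 11 and 14 d; filled points have an adjusted p below 0.05. The C1q chains and Itgam, Itgax and Itgb2 are above 0 at each time, while Hc, Vtn and Cd93 are below it.

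Marker lists also changed after irradiation, some up and some down, and their part in the results above was not tested. Shares of all genes called at the 3 times, to be read beside the counts below, were 13%, 19.4% and 20% higher and 10.6%, 17.8% and 18.9% lower. Of 10 monocyte and macrophage markers 5 were higher and 1 lower (Mrc1) at 8 d, 8 higher at 11 d and all 10 at 14 d. Adgre1, which encodes F4/80, lay between 19.7 and 27.4 CPM without irradiation, 34.2 and 42.7 at 8 d, 73.0 and 155 at 11 d, and 145.1 and 184 CPM at 14 d. The sum of the list, dominated by Lyz2, which alveolar type 2 cells also express, was 7949 to 8730 CPM without irradiation and 6506 to 7567 at 8 d. At 11 d it was 9569 to 14500 CPM and at 14 d 18148 to 23275 CPM. The median log2 change of the 10 genes, in which Lyz2 counts once, was 0.78 at 8 d, 2.03 at 11 d and 2.02 at 14 d, so that median and sum differed in direction at 8 d. None of the 10 genes was at 0 in any group. Alveolar macrophage markers moved the other way, with 7, 6 and 5 of 8 lower at the 3 times and 1, Marco, higher at 8 d and 11 d. Their sum was 1173 to 1420 CPM in controls, and then 611 to 712, 792 to 1022 and 654 to 665 CPM.

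Neutrophil markers, beside C5ar1, were higher in 4 of the 7 tested at 8 d, 4 at 11 d and 2 at 14 d, with none lower. Csf3r and Mmp8 were higher at all 3 times, with S100a9 and Mmp9 at 8 d and S100a8 and Mmp9 at 11 d. Their sum was 35.5 to 89.3 CPM in unirradiated lung, and at the 3 times 85.3 to 247, 105 to 169 and 89.5 to 111 CPM, highest in 8 d replicate 2. At 8 d the sum was 247 CPM in replicate 2, against 95.9 and 85.3 CPM in replicates 1 and 3. The median log2 change of the 7 tested markers was 1.43 at 8 d, 0.99 at 11 d and 0.0012 at 14 d. C5ar1 had its lowest group mean at 8 d, 10.3 ± 1.71 CPM (SD, n = 3), and its relation to these markers was not tested. Interferon response genes, beside Cfb, were higher in 11 of 12 at 8 d and 11 d and 10 of 12 at 14 d. Their sum was 627 to 871 CPM in unirradiated lung, and at the 3 times 1531 to 1664, 1818 to 2552 and 1261 to 1813 CPM. The highest 11 d library was replicate 1, as it was for Cfb. Replicate 1 was also the highest 11 d library for the sums of C1q chains and of monocyte and macrophage, neutrophil and B cell markers. It was not the highest for alveolar macrophage, alveolar type 2, fibroblast, mesothelial and endothelial markers. Any link of Cfb to these lists was not tested.

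Epithelial and stromal markers, beside C2, C3, C4b and Serping1, had lower sums after irradiation. Alveolar type 2 markers summed to 32434 to 36357 CPM in controls, and at the 3 times to 25524 to 28329, 19582 to 26958 and 19277 to 21531 CPM. They were lower in 2, 4 and 4 of 8 genes at the 3 times, Slc34a2 each time, and higher in 1 at 14 d, Lyz1. Fibroblast markers summed to 2073 to 2098 CPM in controls, and then to 1349 to 1732, 1160.0 to 1358 and 1178 to 1407 CPM. At the 3 times 3, 5 and 5 of the 10 were lower, Dcn, Npnt and Inmt each time, and 2 were higher each time, the collagen genes Col1a1 and Col1a2. Mesothelial markers, 7 found, were lower in 5, 7 and 7 genes, and their sum was 395 to 500.1 CPM in controls and then 194 to 251, 84.9 to 185 and 64.7 to 96.3 CPM. None of these genes was at 0 in a whole group. Of the markers of hepatocytes, the main source of plasma complement, Alb lay between 1.14 and 2.54 CPM in the 12 libraries, Apoa1 at no more than 0.187 CPM and Ttr at 0 in all 8 d libraries. The 9 listed hepatocyte markers summed to 83.7 to 91.3 CPM in controls, mostly from listed genes other than these. At the 3 times their sum was 50.9 to 75.9, 53.0 to 59.1 and 53.4 to 58.3 CPM. Of their 5 tested genes none was higher at any time. Only 1, Serpina1a, was lower at 11 d and 14 d, when 17.8% and 18.9% of all genes were lower. Of 7 B cell markers 6 were higher at 8 d, 2 at 11 d and 1 at 14 d, beside 13%, 19.4% and 20% of all genes. The median log2 changes of the 7 were 1.38, 0.50 and 0.19. From 8 d to 14 d 6 were lower and 1 was higher, beside 7.29% and 8.1% of all genes. The sum of the 7 was 38.8 to 66.0 CPM in controls, and at the 3 times 90.9 to 112, 55.9 to 93.2 and 90.9 to 118 CPM. Of 10 endothelial markers 6 were lower at 8 d and all 10 at 11 d and 14 d, with medians of -1.01, -1.24 and -1.88.

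**Figure D5:**
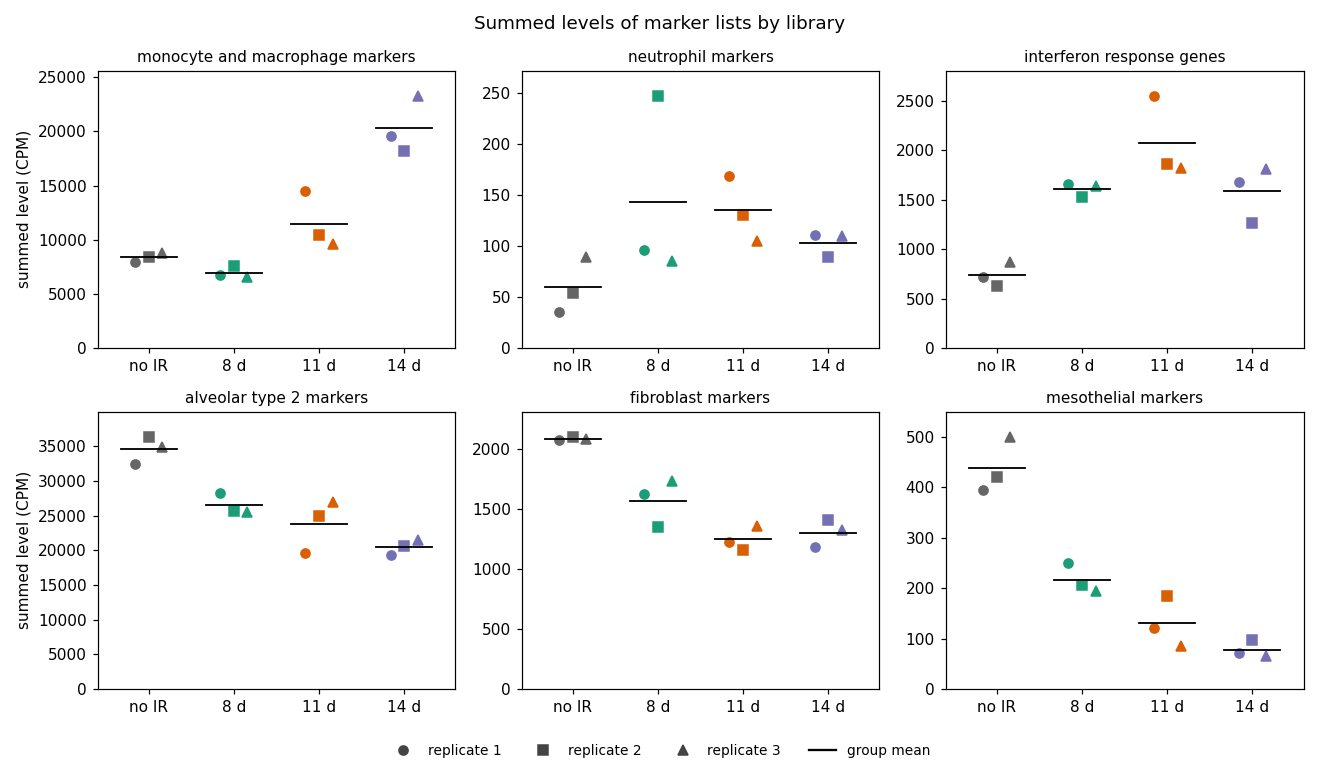
Summed CPM of 6 gene lists in each of the 12 libraries (linear axes from 0, symbols mark replicates, bars are means over 3 libraries). The monocyte and macrophage sum reaches 18148 to 23275 CPM at 14 d against 7949 to 8730 without irradiation, while the mesothelial sum drops to between 64.7 and 96.3 CPM.

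The genes nearest in pattern to each member were taken over the 12 libraries, as the smallest root mean square difference of log2 CPM centred on each gene's own mean, among 11514 other genes. For C3ar1 they were Ms4a7 (0.27), C1qb (0.31) and Trem2 (0.31), and for Cfp the class II genes H2-Eb1 (0.15) and H2-Ab1 (0.16), then Gna15 (0.19). Cfb lay nearest to Hmox1 (0.23), Plek (0.25) and Slfn9 (0.25), C5ar1 to Chordc1 (0.20), Gpr137b-ps (0.21) and Rassf2 (0.21), and C2 to Adgrd1 (0.18), Sphk2 (0.20) and Sulf1 (0.22). C4b was closest to its copy C4a (0.095), then Zfp827 (0.18) and Znf512b (0.19). For C3 (Csrp2bp, Ezr and Lbp) and Serping1 (Zfp87, Zmpste24 and Cnih1) the distances were 0.12 to 0.14. Among the 8 themselves C3 and C4b were the nearest pair (0.28), followed by C3 and Serping1 (0.38), C4b and C2 (0.43) and Cfb and Cfp (0.45), and C2 and C3ar1 the farthest (2.50).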

How the data were processed

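The 12 libraries were analysed from the authors' deposited table of raw counts by gene symbol. Alignment used TopHat and the genome mm10, per the submitters' processing notes. Counting program, annotation and strand setting: not given in the sources used here. A directional kit (NEBNext Ultra II) was used, per the labels' protocols. Symbols on more than 1 line (35) were summed, which left 23238, of which 16484 passed the default filter of edgeR. One quasi-likelihood fit of edgeR 4.0.16 (R 4.3.3) with TMM scaling covered the 4 groups, p-values were adjusted by Benjamini-Hochberg over all tested genes, and a gene was called below 0.05. SEs were derived from the log2 change and its F value, and intervals use the moderated degrees of freedom. CPM use TMM-scaled library sizes, and exon lengths come from GENCODE M21. The code was tested on simulated data. Alternatives tried were DESeq2 1.42.0, limma-voom (limma 3.58.1), a fit of the compared groups only, a replicate block, scaling by median of ratios or by library size, no filter or one of 10 counts, and leaving out each library.

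All members are named in every comparison with unirradiated lung, and each member called between irradiated groups is given. Uncalled changes of members between irradiated groups are not all given. The rule also names other complement genes that were called against unirradiated lung, and the 3 nearest patterns per member. For those patterns a mean of at least 5 CPM was needed (0.5 CPM added), and unnamed loci and immune receptor segments were left out. Genes named outside this rule, such as uncalled complement genes and markers, were chosen after the values were seen. The members and lists were chosen with earlier results of these data known. Another listed complement gene is not reported here and is in none of the counts.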

Additional observations from a re-analysis of the deposited data

Results flagged for a closer look

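Between irradiated groups, 5 of the 8 genes were called in at least 1 edgeR test of a later against an earlier time (3 libraries each). Compared with 8 d, 3 members were called at 11 d, beside 2.14% of all genes. At 14 d 4 members were called, beside 15.4% of all genes. The controls are a single group with no day given. Whether the effect of irradiation itself differed between times therefore cannot be told from these tests. From 8 d to 11 d the log2 change was 1.18 (SE 0.28, adjusted p = 0.042) for Cfb, 1.97 (SE 0.33, adjusted p = 0.011) for C3ar1 and 1.04 (SE 0.18, adjusted p = 0.012) for C5ar1. From 8 d to 14 d it was -0.86 (SE 0.22, adjusted p = 0.015) for C2, 1.19 (SE 0.19, adjusted p = 0.00083) for Cfp, 2.66 (SE 0.34, adjusted p = 0.00021) for C3ar1 and 1.13 (SE 0.18, adjusted p = 0.00073) for C5ar1. For C5ar1 the earlier log2 change from unirradiated lung was below 0, at -0.46, and the later ones above it, at 0.58 and 0.67. The calls from 8 d to 11 d were the less stable: that of Cfb held in 6 of 14 alternative settings, with an adjusted p of 0.0014 to 0.21, and none of the 3 held without 8 d replicate 3. The call of C2 from 8 d to 14 d held in 12 of 14, and those of Cfp, C3ar1 and C5ar1 from 8 d to 14 d held in all 14. Single outlying libraries were not tested in groups of 3.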

How the results depend on the processing

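Every gene called against unirradiated lung kept its direction in all 14 alternatives of its comparison, and the single call against unirradiated lung that was lost in any was that of C5ar1 at 11 d. Of the recomputed log2 changes, 598 kept direction and side of the threshold, 15 lost a call, 15 gained one and 44 changed sign. The sign changes were all in C3, Serping1 and C4b, whose changes were not called. Those of C3 and Serping1 lay near 0, while those of C4b were -0.18 at 8 d and 0.25 from 11 d to 14 d. The cause of the sign changes was not tested. With library size alone C3 was 0.044 at 8 d and -0.088 from 8 d to 11 d, and Serping1 -0.025 at 11 d and 0.018 from 11 d to 14 d. With only the groups compared C3 was 0.0048 at 8 d and 0.0094 at 11 d, and Serping1 0.0019 at 14 d. With the filter of 10 counts C3 was 5.9e-05 at 11 d and Serping1 0.0030 at 14 d, and without a filter Serping1 was -0.0018 at 11 d. Serping1 was 0.0065 at 14 d with median-of-ratios scaling and with DESeq2, and -0.0031 at 11 d with limma-voom.

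Leaving out 1 library gave C3 between -0.17 and 0.12 at 8 d, -0.12 and 0.13 at 11 d, -0.27 and 0.078 at 14 d. C3 lay between -0.13 and 0.17 for 11 d against 8 d, -0.27 and 0.079 for 14 d against 11 d, and -0.27 and 0.086 for 14 d against 8 d. Serping1 lay between -0.10 and 0.16 at 11 d, -0.17 and 0.084 at 14 d, -0.16 and 0.10 for 11 d against 8 d, -0.18 and 0.10 for 14 d against 11 d, and -0.23 and 0.026 for 14 d against 8 d. C4b lay between -0.33 and 0.076 at 8 d and between -0.025 and 0.46 from 11 d to 14 d. The number of the 8 genes called without 1 library was 0 to 3 for 11 d against 8 d and 0 to 1 for 14 d against 11 d. Over all genes these comparisons called 2 to 545 and 13 to 681. With the replicate block 2 of the 8 genes in place of 3 were called from 8 d to 11 d, Cfb being lost (1.13, adjusted p = 0.053, edgeR). Over all genes that comparison called 391 in place of 353. Serping1 was -0.0029 at 11 d with the block, and other counts of the 8 genes called were those without it. The labels do not say what a number shares. Of 18 same-numbered pairs 5 correlated above 0.1 in their deviations. Same-numbered pairs ranged from -0.35 to 0.29 and pairs with other numbers from -0.44 to 0.46. Of the 12 samples 8 correlated best with their own number.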
